A study of Mus musculus with 8 samples.

Results

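Carbonic anhydrases are the enzymes that interconvert carbon dioxide and bicarbonate. The genes described here are 9 members of the mouse family, Car1, Car2, Car3, Car4, Car8, Car9, Car12, Car13 and Car14, chosen by gene symbol. Every probe set annotated to exactly 1 of these symbols was taken, which gave 19 probe sets of 45037 tested and 9 genes of 18193, and all 9 genes were measured. No filter on low values was applied. The family was proposed with differences between Hyp and WT in these arrays already known, so its counts describe the family and do not support a statement about it.

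The 8 arrays were hybridised with total RNA of long bone (tibia and femur) from males at an age of 12 days. Of these, 4 came from wild-type (WT) mice and 4 from Hyp mice. Hyp mice are labelled C57BL6 and lack the 3′ end of Phex, an endopeptidase gene of osteoblasts and osteocytes whose loss causes X-linked hypophosphatemia in people. The WT mice are labelled only as wild type. All mice were kept on a diet with calcium, phosphate and vitamin D, and each RNA combined 2 bone samples of 1 genotype. The labels do not say from how many animals a group came, so p-values measure the spread between RNA samples, which may in part be technical.

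The deposited values are on a log2 scale and centred, so that each probe set has a median of 0 over the 8 arrays. They show differences between arrays, and neither the level of a gene, the order of the genes by level, nor whether a bone marker is present can be read from them. Where the genotypes do not overlap at a probe set, the centring alone places 1 genotype above 0 and the other below it. Phex fell by 6.67 ± 0.15 (SE, n = 4 per genotype; limma adjusted p = 3.75e-09) on the log2 scale as the mean of its probe sets, and Fgf23, the phosphate-lowering hormone of bone, rose by 5.61 ± 0.18 (limma adjusted p = 1.22e-07). WT replicate 3 stood apart from the other arrays in the mean of 31 skeletal muscle markers, at 1.70, against -0.81 to 0.21 on the other arrays. Differences are Hyp minus WT throughout, and a gene is called where its p-value from limma, adjusted over all genes or all probe sets, is under 0.05.

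The family divides by where its enzymes work. Car1, Car2, Car3 and Car13 encode enzymes of the cytosol. Car4 encodes an enzyme tethered to the outer face of the cell membrane by a lipid anchor, and Car9, Car12 and Car14 span the membrane with the active site outside the cell. Car8 encodes a relative that has lost the catalytic activity. In bone, carbonic anhydrase 2 is known for supplying the protons with which osteoclasts dissolve mineral, and its loss in people causes osteopetrosis with renal tubular acidosis.

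In Hyp bone Car3 and Car12 were lower, each by a little over 1 log2 unit, and Car2 was slightly higher. As means over the probe sets of each gene, 2 of the 9 members fell, 1 rose and 6 did not pass, where 6.32% of all genes fell and 6.54% rose. By probe set, 7 of 19 fell, 1 rose and 11 did not pass, where 3.91% of all probe sets fell and 3.22% rose. The genotypes did not overlap for 3 of the 9 genes, against 19.2% of all genes, nor for 9 of the 19 probe sets, against 15.5% of all probe sets. The median difference of the 9 genes was -0.02, beside 0.02 over all genes tested. Nothing is read from these shares, since the family was proposed with this comparison in view.

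**Figure D1:**
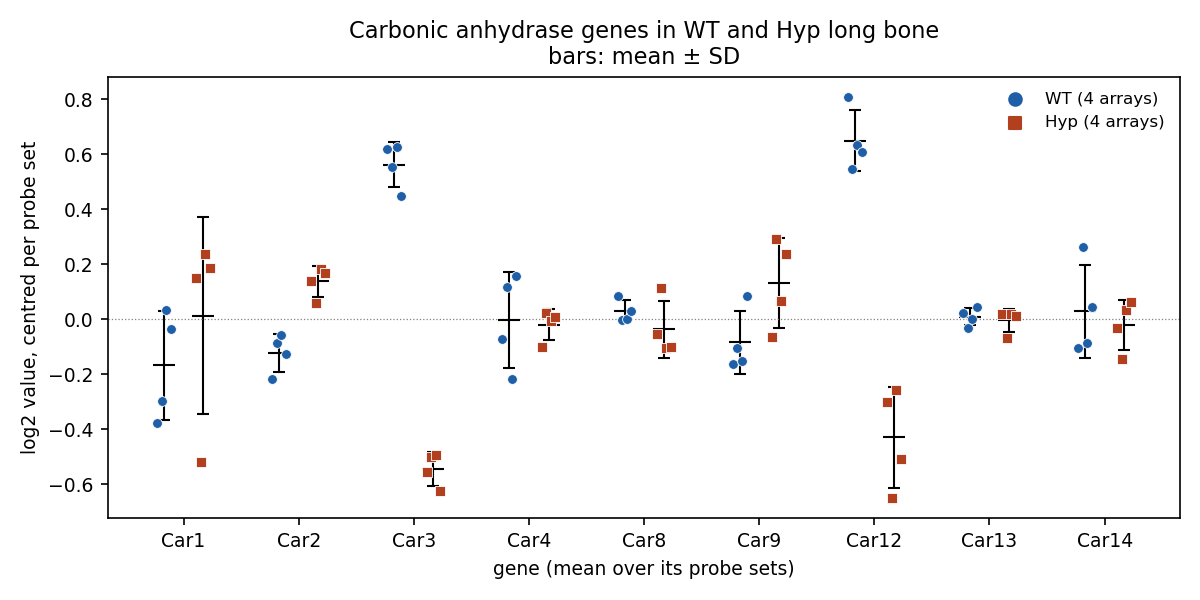
Values of the 9 carbonic anhydrase genes on the 8 arrays, as the log2 value centred per probe set and averaged over the probe sets of a gene; points are arrays, and bars are the mean ± SD of 4 WT or 4 Hyp arrays. The Hyp arrays lie below the WT arrays for Car3 (-0.63 to -0.49 against 0.45 to 0.63) and Car12, above them for Car2, and overlap with them for the other 6 genes.

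Among the cytosolic enzymes, Car3 differed most. Carbonic anhydrase 3 is abundant in skeletal muscle and fat cells and is known for its low activity towards carbon dioxide. On the gene mean the WT arrays, in the order of replicates 1 to 4, lay at 0.62, 0.55, 0.63 and 0.45 and the Hyp arrays at -0.56, -0.50, -0.49 and -0.63. The genotypes were far apart, with an SD between arrays of 0.08 in WT and 0.06 in Hyp. The difference was -1.11 ± 0.06 (SE, n = 4 per genotype; limma adjusted p = 7.04e-06), which is 2.15-fold lower in Hyp bone.

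All 4 probe sets of Car3 fell and none of them had overlapping genotypes. At 1453588_at the WT arrays lay at 0.88, 0.62, 0.93 and 0.48 and the Hyp arrays at -0.65, -0.48, -0.68 and -0.76, a difference of -1.37 ± 0.11 (SE; limma adjusted p = 9.6e-05). This was the widest gap of the 4. At 1430584_s_at the difference was -1.22 ± 0.11 and at 1460256_at -1.10 ± 0.08. The narrowest gap was at 1449434_at, where all 4 WT arrays lay between 0.31 and 0.33 and the difference was -0.74 ± 0.06 (SE; limma adjusted p = 0.000108). Hyp replicate 3 lay at -0.31 there, apart from the other Hyp arrays at -0.46 to -0.44. The probe sets also ranked the arrays of a genotype differently: WT replicate 3 was the highest WT array at 1430584_s_at and 1453588_at and the lowest at 1460256_at (0.42, against 0.48 to 0.69).

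Since Car3 is a muscle gene and muscle can stay attached to long bones, its values were set beside the skeletal muscle markers on each array. Of the 31 markers measured, limma called 0 higher and 0 lower, and 3 lay lower and 0 higher at an unadjusted p under 0.05. Without WT replicate 3, 1 rose, and without WT replicate 2, or with the muscle mean as a covariate, 1 fell. The median difference of the list was -0.54. The muscle mean of WT replicates 1 to 4 was -0.36, -0.11, 1.70 and 0.21, and that of Hyp replicates 1 to 4 was 0.12, -0.81, 0.04 and -0.18. The genotypes overlapped in this mean, and single arrays differed widely within a genotype. Acta1, the skeletal actin, named after its values were seen, ran from -1.14 to 2.79 in WT and from -2.25 to 0.36 in Hyp.

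Car3 showed no such spread on the gene mean. Within WT the muscle mean spanned 2.05 log2 units and Car3 spanned 0.18, and within Hyp they spanned 0.93 and 0.13. Single probe sets differed in this, with WT arrays from 0.37 to 0.83 at 1430584_s_at and from 0.31 to 0.33 at 1449434_at. Where probe sets rank the arrays in opposite ways, their spreads partly cancel in the gene mean. The correlations below used the gene mean only. WT replicate 1, with the lowest muscle mean of its genotype, and WT replicate 3, with the highest, had nearly equal Car3 values, at 0.62 and 0.63. With the muscle mean as a covariate the Car3 difference was -1.10 ± 0.07 (SE; limma adjusted p = 4.4e-05), and with both WT replicate 3 and Hyp replicate 2 left out it was -1.10 ± 0.07 (limma adjusted p = 0.000137). The arrays fall into separate clusters by genotype, so no correlation over them is given. Of the deviations from each genotype's mean, Pearson's r was 0.15 (two-sided exact permutation within genotype p = 0.788, 8 arrays) and Spearman's rho 0.05 (exact permutation p = 0.95). Without WT replicate 3 and Hyp replicate 2, the arrays farthest from the median in muscle, r turned to -0.49 (exact permutation p = 0.472, 6 arrays), and without WT replicate 3 alone to -0.51 (exact permutation p = 0.285, 7 arrays). Neither sign passed, so a relation between Car3 and muscle within a genotype was not detectable with these arrays.

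**Figure D2:**
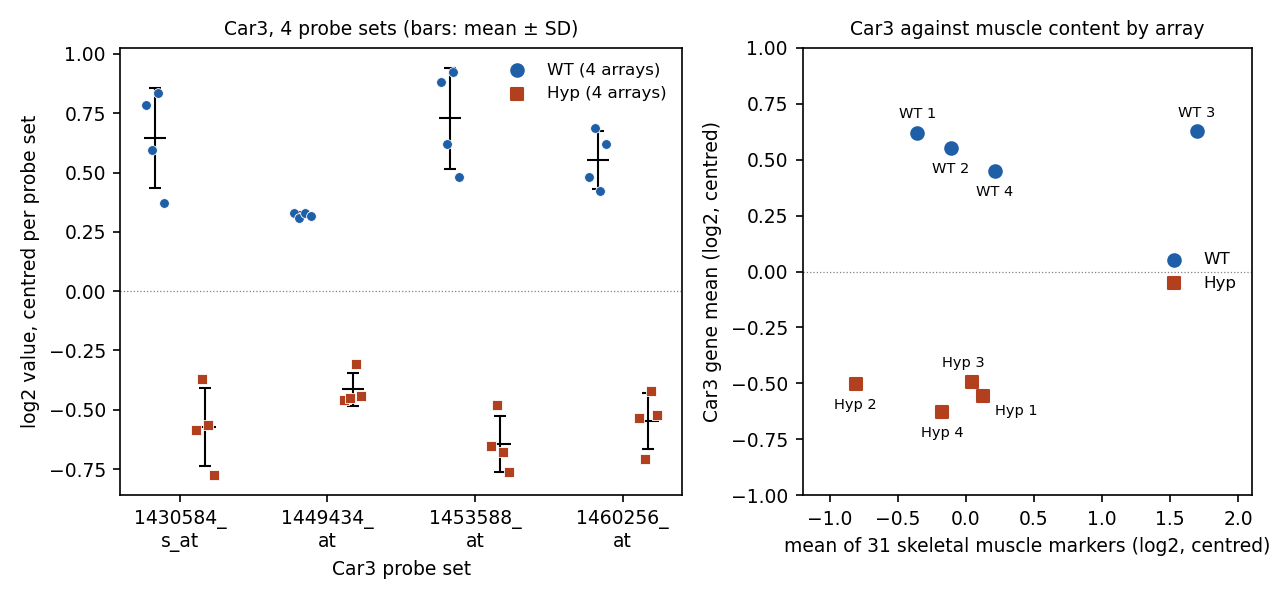
Left, log2 values (centred) of the 4 Car3 probe sets on each array, with bars for the mean ± SD of 4 arrays; right, the Car3 gene mean of each array against the mean of 31 skeletal muscle markers, both in centred log2 units. WT replicate 3 lies at 1.70 in muscle and Hyp replicate 2 at -0.81, while Car3 stays between 0.45 and 0.63 in WT and between -0.63 and -0.49 in Hyp.

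Fat cells are another known source of Car3. Of 14 adipocyte markers measured, 2 rose and 1 fell, with a median difference of 0.11. Cebpa, a transcription factor of adipocytes and myeloid cells, rose by 0.45 ± 0.08 (SE; limma adjusted p = 0.00365) and Fabp4, a fatty acid carrier, by 0.55 ± 0.15 (limma adjusted p = 0.0412). Adipoq (adiponectin) fell by 0.46 ± 0.13 (limma adjusted p = 0.0379). The Fabp4 call was lost without any 1 array other than Hyp replicate 1 or WT replicate 3 (limma adjusted p from 0.0591 to 0.101), and that of Adipoq without any 1 array other than Hyp replicate 4 (limma adjusted p from 0.0559 to 0.0982) and with the muscle mean as a covariate. Without WT replicate 3, 4 of these markers rose and 0 fell; without any of the other arrays 1 or 2 rose, and 0 fell except without Hyp replicate 4, where 1 did. The mean over the list lay between -0.0031 and 0.13 in Hyp and between -0.12 and -0.02 in WT. The part of fat cells in the difference of Car3 was not tested.

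The genes whose values over the 8 arrays came closest to those of Car3 were Cdo1, Hoxb2, 1700066M21Rik, Farp2 and Ptgs2. Cdo1 starts cysteine breakdown and is also among the osteocyte markers read below. Hoxb2 is a homeobox factor, Farp2 a guanine nucleotide exchange factor and Ptgs2 the inducible cyclooxygenase. Closeness was the root mean square difference between 2 genes over the arrays, each gene taken from its own mean, and it was 0.08 for Cdo1 and 0.10 for Ptgs2, beside a median of 0.58 over all other genes. Each of the 5 fell, by 1.0 to 1.19 log2 units. Most of the variation of Car3 lies between the genotypes, so genes chosen for closeness to it had to fall by a similar amount.

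Car2 encodes the widespread high-activity enzyme of osteoclasts and red cells. Its single probe set lay at 0.14, 0.06, 0.18 and 0.17 in Hyp replicates 1 to 4 and at -0.22, -0.09, -0.06 and -0.13 in WT. The genotypes did not overlap, but Hyp replicate 2 and WT replicate 3 were only 0.12 apart. The difference was 0.26 ± 0.05 (SE, n = 4 per genotype; limma adjusted p = 0.01 over genes), or 1.2-fold higher in Hyp. In the fit over probe sets the same values gave an adjusted p of 0.03, and the call was lost there without any 1 array other than Hyp replicate 2 or WT replicate 3 (limma adjusted p from 0.0526 to 0.0985); in the fit over genes it held without each array (limma adjusted p from 0.00968 to 0.0352).

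Markers of both cell types that use Car2 were read beside it. Of 20 erythroid markers measured, 15 rose, and 16 lay higher at an unadjusted p under 0.05. The median difference over the 20 was 0.31. Alas2, which begins haem synthesis in the erythroid lineage, rose by 0.48 ± 0.07 (SE; limma adjusted p = 0.00125) and Klf1, the erythroid transcription factor, by 0.49 ± 0.07 (limma adjusted p = 0.00135). The count was 8 without WT replicate 1 and 9 without Hyp replicate 3. The mean over the erythroid list lay between 0.04 and 0.18 in Hyp and between -0.31 and -0.08 in WT, and so did not overlap. Of 19 osteoclast markers measured, 1 rose and 1 fell, with a median of -0.03. They were Trem2, a receptor of macrophages and osteoclast precursors, at 0.31 ± 0.05 (SE; limma adjusted p = 0.00362) and Dcstamp, the osteoclast fusion protein, at -0.33 ± 0.08 (limma adjusted p = 0.0216). Without shared-probe probe sets Trem2 lay at 0.11 (limma adjusted p = 0.279). The Dcstamp call was lost without Hyp replicate 2, 3 or 4 or WT replicate 1 (limma adjusted p from 0.0519 to 0.0677). The osteoclast mean lay between -0.07 and 0.02 in Hyp and between -0.04 and 0.05 in WT. The part of red cells and osteoclasts in the difference of Car2 was not tested, and in RNA of whole bone more cells of a type and more RNA per cell cannot be told apart.

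Car1, the other enzyme of red cells, did not pass. Its probe set lay at 0.15, -0.52, 0.24 and 0.19 in Hyp and at -0.38, -0.30, 0.03 and -0.03 in WT. Hyp replicate 2 was the lowest of the 8 arrays while the other Hyp arrays were the highest. The difference was 0.18 ± 0.16 (SE; limma adjusted p = 0.508), and it was 0.36 without Hyp replicate 2 (limma adjusted p = 0.0522) and 0.43 with both Hyp replicate 2 and WT replicate 3 left out (limma adjusted p = 0.0172). Hyp replicate 2 also had the lowest erythroid mean of the Hyp arrays, at 0.04.

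Car13, a cytosolic enzyme of many tissues, lay between -0.07 and 0.02 in Hyp and between -0.03 and 0.04 in WT on the gene mean, with a difference of -0.01 ± 0.05 (SE; limma adjusted p = 0.878). In the RefSeq gene table for GRCm38.p6, Car13, Car1, Car3 and Car2 follow each other on chromosome 3 in that order with only pseudogenes and a long noncoding RNA between them, and Car3 and Car2 are adjacent. These adjacent genes differed in opposite directions, with Car3 at -1.11 and Car2 at 0.26.

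Among the membrane-bound enzymes, Car12 fell. Carbonic anhydrase 12 is an enzyme of the outer cell surface, and like Car9 it is known as a gene that low oxygen can induce. On the gene mean the WT arrays lay at 0.81, 0.55, 0.64 and 0.61 and the Hyp arrays at -0.30, -0.65, -0.26 and -0.51. The lowest WT array was thus 0.80 above the highest Hyp array. The difference was -1.08 ± 0.09 (SE, n = 4 per genotype; limma adjusted p = 5.81e-05), or 2.11-fold lower in Hyp.

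The 3 probe sets of Car12 disagreed in size. At 1428485_at the WT arrays lay at 1.04, 0.46, 1.60 and 0.50 and the Hyp arrays at -0.89, -1.57, -0.46 and -1.15, a difference of -1.92 ± 0.27 (SE; limma adjusted p = 0.0021). At 1446517_at WT replicates 1, 2 and 4 lay at 1.39, 1.07 and 1.04 and the Hyp arrays between -0.32 and -0.01, but WT replicate 3, the highest array at the first probe set, lay at 0.01, beside the Hyp arrays. The difference there was -1.02 ± 0.24 (SE; limma adjusted p = 0.0306), and it lost its call without any 1 array other than WT replicate 3 (limma adjusted p from 0.0594 to 0.0878). At 1447762_x_at, whose suffix marks probes that may match other transcripts, the difference was -0.30 ± 0.10 (SE; limma adjusted p = 0.0979), where the genotypes met near 0 without overlap. Without the probe sets of shared probes the gene mean differed by -1.47 ± 0.13 (SE; limma adjusted p = 8.2e-05).

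**Figure D3:**
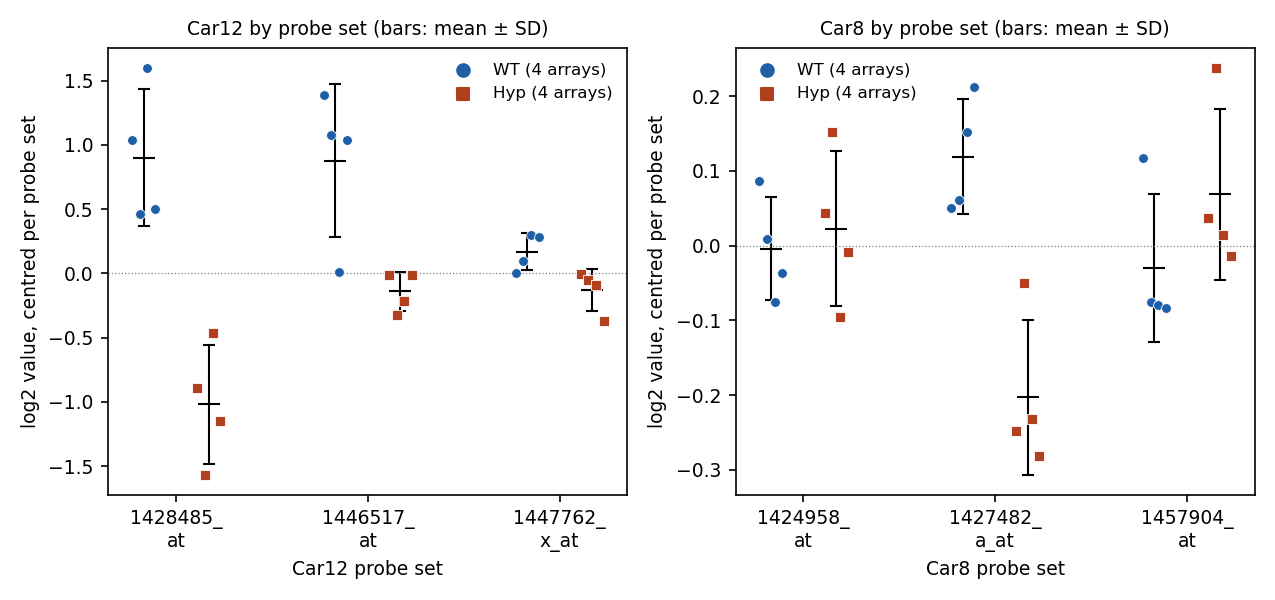
Log2 values (centred) of the 3 probe sets of Car12, left, and of Car8, right, on each array, with bars for the mean ± SD of 4 WT or 4 Hyp arrays; the vertical scales differ. The Car12 probe sets fall by 1.92, 1.02 and 0.30 with WT replicate 3 at 0.01 in the middle one, and only the middle probe set of Car8 has no overlap between genotypes.

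Osteoblast and osteocyte markers were read beside Car12. Of 15 osteoblast markers measured, 12 fell and 2 rose, with a median difference of -0.47, and the list mean lay between -0.42 and -0.16 in Hyp and between 0.20 and 0.33 in WT. Tmem119, a membrane protein of osteoblasts, fell by 0.75 ± 0.06 (SE, limma adjusted p = 4.89e-05), and Ifitm5, which marks osteoblasts that mineralize, by 1.22 ± 0.09. Cpz, a carboxypeptidase, and Col22a1, a collagen, fell by 1.38 ± 0.11 and 1.23 ± 0.10. The 2 that rose are named because their values were seen to oppose the rest. They were Col1a1, which encodes type I collagen, at 0.47 ± 0.12 (SE; limma adjusted p = 0.026) and Kcnk2, a potassium channel, at 0.24 ± 0.05 (limma adjusted p = 0.011). The Col1a1 call was lost without Hyp replicate 2 or 3 or WT replicate 1, 2 or 4 (limma adjusted p from 0.0509 to 0.0791). Of its 2 probe sets, the one with the largest SD differed by 1.08 and the other differed in the opposite direction. The rise of Col1a1 thus rests on 1 of them. Of 14 osteocyte markers measured, 4 rose and 4 fell, with a median difference of -0.11. Among them were Phex, at -6.67, and Fgf23, at 5.61. Sost lay at -1.85 ± 0.14 (SE, limma adjusted p = 4.73e-05), and Cdo1 fell too. The other called markers, named after their values were seen, were Mepe, Ank, Tnfrsf11b and Irx5. Mepe rose by 0.87 ± 0.16, Ank by 0.77 ± 0.10 and Tnfrsf11b by 0.65 ± 0.15, and Irx5 fell by 0.53 ± 0.15. The genotypes overlapped in the list mean (-0.31 to 0.03 in Hyp, -0.05 to 0.30 in WT). That mean depends largely on the opposite differences of Phex and Fgf23, so its overlap is not read as unchanged osteocyte markers. The part of osteoblasts and osteocytes in the differences of Car12 and Car3 was not tested. The genes closest to Car12 over the 8 arrays were Irx6, a homeobox factor, at a root mean square difference of 0.06, Slc2a13, a myo-inositol transporter, at 0.09, Carmil1, Unc5c, a netrin receptor, and Smpd3, a sphingomyelinase that bone needs to mineralize, at 0.10, beside a median of 0.57. They fell by 0.96 to 1.09 log2 units, which the choice by closeness to Car12 again fixed in advance.

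Car9, the other transmembrane enzyme known for its induction by low oxygen, did not pass. It lay at -0.06, 0.29, 0.06 and 0.24 in Hyp and at -0.16, -0.10, -0.15 and 0.08 in WT. The genotypes overlapped, with Hyp replicate 1 among the WT arrays and WT replicate 4 among the Hyp arrays. The difference was 0.22 ± 0.09 (SE; limma adjusted p = 0.133). Of 27 hypoxia response genes measured, 4 fell and 2 rose, with a median difference of 0.00. Among those that fell were P4ha1 (-1.11 ± 0.08, SE, limma adjusted p = 3.54e-05) and P4ha2 (-1.14 ± 0.11), which hydroxylate collagen. The others that fell were Adm (adrenomedullin, -0.46 ± 0.07) and Vldlr, a lipoprotein receptor (-0.42 ± 0.08). Pfkfb4, a regulator of glycolysis, and Egln3, an oxygen sensor, named after their values were seen, rose by 0.27 ± 0.06 (limma adjusted p = 0.0169) and 0.20 ± 0.06 (limma adjusted p = 0.0474). The Pfkfb4 call was lost without WT replicate 1 (limma adjusted p = 0.0504), and that of Egln3 without any 1 array except Hyp replicate 1 (limma adjusted p from 0.053 to 0.137).

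Because Car12 fell and Car9, with the same known induction, did not pass, their promoter sequences are shown. Each is the 250 bases before the gene's start, 5′ to 3′ on the gene's strand, from RefSeq on GRCm38.p6, with matches to the core of the hypoxia response element in capitals. Sequences were held for 4 of the 9 members, Car4, Car9, Car12 and Car14.
Car9 (chr4:43506776-43507025, + strand): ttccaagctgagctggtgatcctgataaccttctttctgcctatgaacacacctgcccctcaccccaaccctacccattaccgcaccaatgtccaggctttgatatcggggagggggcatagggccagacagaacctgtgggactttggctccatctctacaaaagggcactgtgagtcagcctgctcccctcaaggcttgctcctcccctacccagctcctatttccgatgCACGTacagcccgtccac
Car12 (chr9:66713436-66713685, + strand): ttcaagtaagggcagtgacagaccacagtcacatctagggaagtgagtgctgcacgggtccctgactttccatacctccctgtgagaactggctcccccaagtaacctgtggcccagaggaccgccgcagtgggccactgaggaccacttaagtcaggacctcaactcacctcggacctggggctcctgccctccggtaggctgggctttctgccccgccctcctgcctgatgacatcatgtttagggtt
The motifs searched were ACGTG and GCGTG on both strands. The Car9 window held ACGTG 1 time, on the opposite strand, beginning 18 bases before the start, and the Car12 window held neither. Car14 held ACGTG 1 time and Car4 neither motif. Of all 32851 promoter windows of this length, 16.6% held ACGTG and 28.2% held GCGTG, so a match or its absence in 1 window is common, and it describes these letters only.

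Car4, an enzyme of capillary endothelium and other surfaces, did not differ beyond its spread. On the gene mean it lay at -0.10, 0.02, -0.01 and 0.01 in Hyp and at -0.07, 0.12, -0.22 and 0.16 in WT, and the difference was -0.02 ± 0.08 (SE; limma adjusted p = 0.926). Both of its probe sets overlapped between genotypes. Of 19 endothelial markers measured on the same arrays, 17 rose, with a median difference of 0.39; Plvap, of fenestrated vessels, rose by 0.59 ± 0.06 (SE; limma adjusted p = 0.000143) and Eng (endoglin) by 0.51 ± 0.05. Car14, another transmembrane enzyme, lay between -0.14 and 0.06 in Hyp and between -0.11 and 0.26 in WT, with a difference of -0.05 ± 0.08 (SE; limma adjusted p = 0.762).

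Car8, the family's catalytically inactive relative, gave probe sets that went different ways. At 1427482_a_at the Hyp arrays lay at -0.25, -0.05, -0.23 and -0.28 and the WT arrays at 0.05, 0.06, 0.15 and 0.21. The genotypes did not overlap, and the difference was -0.32 ± 0.07 (SE; limma adjusted p = 0.0228), a call lost without Hyp replicate 1, 3 or 4 or WT replicate 4 (limma adjusted p from 0.0633 to 0.0671). The other probe sets differed by 0.03 ± 0.07 (limma adjusted p = 0.863) and 0.10 ± 0.08 (limma adjusted p = 0.497), with overlapping genotypes. The gene mean was -0.07 ± 0.06 (SE; limma adjusted p = 0.517), and without 1427482_a_at it was 0.06 ± 0.07. That probe set was left out there for its suffix, which is not the one described for Car12. With each gene taken as its probe set of largest SD, Car8 was called lower beside Car3 and Car12. The 6.32% of all genes given above belongs to the gene means, so nothing is read from these calls together. Under this choice Car8 lay at -0.32 ± 0.08 (SE; limma adjusted p = 0.0213). A fall of Car8 therefore rests on 1 of its 3 probe sets.

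**Figure D4:**
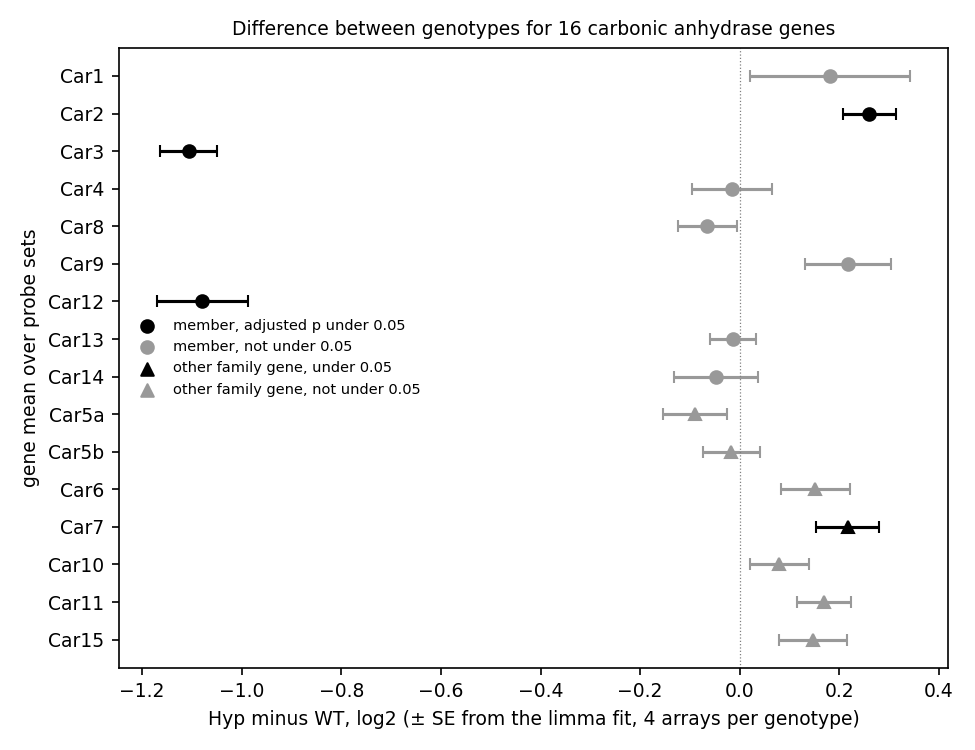
Hyp minus WT difference (log2, ± SE from the limma fit over 18193 genes, 4 arrays per genotype) of the 9 members (circles) and of the 7 other carbonic anhydrase genes (triangles); black marks an adjusted p under 0.05. Car3 and Car12 lie at -1.11 and -1.08 and all other genes between -0.09 and 0.26.

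The remaining carbonic anhydrase genes of the mouse were measured for comparison. Of Car5a, Car5b, Car6, Car7, Car10, Car11 and Car15, 1 rose and 6 did not pass, with a median difference of 0.15. Car7, a cytosolic enzyme known from brain, rose by 0.22 ± 0.06 (SE; limma adjusted p = 0.0492). Among its 3 probe sets, 0 passed alone (3 of the 11 probe sets of these 7 genes had an unadjusted p under 0.05). The call was lost without any 1 array other than WT replicate 2 (limma adjusted p from 0.0514 to 0.14), under quantile normalization (0.0608), with the muscle mean as a covariate (0.0861) and without shared probes (0.216). None of the 7 genes lay as far from 0 as Car3 or Car12.

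The transporters that move bicarbonate and protons were read as the partners of these enzymes. Of 33 measured, 5 rose and 1 fell, with a median difference of 0.01. Slc9a2, a sodium-proton exchanger, fell by 0.90 ± 0.13 (SE; limma adjusted p = 0.00115), a call kept without each array. Slc4a1, the band 3 bicarbonate exchanger of red cells, rose by 0.37 ± 0.08 (limma adjusted p = 0.0181). Slc9a9, an endosomal exchanger, and Aqp1, a water channel of red cells and endothelium, rose by 0.26 ± 0.06 and 0.32 ± 0.08. Hvcn1, a proton channel of leukocytes, and Slc16a3, a lactate transporter, named after their values were seen, rose by 0.24 ± 0.06 and 0.21 ± 0.06. The 5 rises depended on single arrays: 0 were called without WT replicate 1, 1 without Hyp replicate 1, 2 or 3 without any other array except WT replicate 3, and 4 without that one.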

How the data were processed

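The authors deposited 1 value for each probe set on each array. The submitters' processing notes name RMA without a version. The deposited log2 values had been centred by the authors, with each probe set's median at 0 within 5.1e-07, a step that no label records. Base 2 was assumed because the values of a probe set ranged over as much as 8.92 units. Scanner files were not used here, so signal over background is unknown and the number of arrays limits the precision.

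After 64 control probe sets were left out, limma 3.58.1 (R 4.3.3; lmFit, eBayes, two-sided, Benjamini-Hochberg) was fitted over 45037 probe sets and again over 18193 genes, each the mean of its probe sets with 1 symbol. Symbols came from the platform annotation and were brought up to date by gene identifier with RefSeq. SE is from the fit and SD is between arrays. The members and the 12 gene lists were chosen with earlier results of these data known, and lists are described by counts and medians with no set test. Named were all members, up to 4 called genes per list by smallest p, and the 5 genes closest to Car3 and to Car12. Further genes, among them the remaining called osteocyte markers, are marked where they are named. Growth plate markers (7 higher and 2 lower of 20; 3 higher without WT replicate 1, and 4 without Hyp replicate 2 or 3) enter no further comparison. The fits were tested on simulated data. Alternatives were a block for the replicate number, quantile normalization, array weights, a robust prior, an SD filter, other summaries of a gene, the muscle mean as a covariate and leaving out each array. Leaving out WT replicate 3 together with Hyp replicate 2 was chosen after seeing the data.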

Additional observations from a re-analysis of the deposited data

Results flagged for a closer look

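Among 82 groups of 4 arrays tested, 7 had 1 array apart from the other 3 by Dixon's test, and chance flags about 5% of such groups. Hyp replicate 2 lay lowest for Car1 on the gene mean, at -0.52 against 0.15 to 0.24, and for Car13, at -0.067 against 0.011 to 0.020. Hyp replicate 1 lay lowest at 1 probe set of Car4, at -0.13 against -0.01 to 0.01. Hyp replicate 3 lay highest at 1 probe set of Car3, at -0.31 against -0.46 to -0.44. WT replicate 1 lay highest at 1 probe set of Car13, at 0.11 against -0.01 to 0.00, and at 1 probe set of Car8, at 0.12 against -0.08 on each of the others. The mean over the bicarbonate and proton transport genes was highest in WT replicate 2, at 0.030 against -0.034 to -0.026.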

How the results depend on the processing

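The deviations of same-numbered Hyp and WT arrays correlated at 0.15, -0.04, 0.26 and 0.18, not all above 0.1, and the main fit took the arrays as unpaired. Differently numbered arrays were not compared, so these values do not decide whether the replicate numbers pair the arrays. With the replicate number as a block (replicate block), 2 of the called member probe sets missed the threshold in the fit over probe sets. They were that of Car2 (limma adjusted p = 0.0601) and 1 of Car8 (0.0509), and the other called member probe sets kept their calls. In the separate fit on gene means, all genes called numbered 1015 higher and 1063 lower in place of 1190 and 1150. Those counts are of genes and give no share for the member probe sets. The block also gave 2 lower muscle markers in place of 0 and 3 higher growth plate markers in place of 7. On gene means, Car3, Car12 and Car2 kept their direction and call under each of the 16 alternatives (Car3 from -1.37 to -1.07, Car12 from -1.92 to -1.01, Car2 from 0.23 to 0.31). With array weights 2206 probe sets were higher in place of 1452, and with the SD filter the Car2 probe set lost its call. With both WT replicate 3 and Hyp replicate 2 left out, the members called higher were Car2 and Car1, by probe set and on gene means. No share over all genes is set beside these 2 calls, and nothing is read from them together. In the same setting growth plate markers higher numbered 2 and Car13 lay at 0.0044 on the gene mean. There 1 probe set of Car8 lay at -0.040, Acta1 at 0.26 and the Car3 to muscle r at -0.49. With the muscle mean as a covariate, 1 probe set of Car8 lay at -0.021, 1 of Car13 at 0.00081 and Acta1 at 0.040. Without 1427482_a_at, left out for its suffix, the gene mean of Car8 lay at 0.063. Leaving out 1 array at a time gave 625 to 2125 higher and 1055 to 1975 lower probe sets, 605 to 1437 higher and 805 to 1153 lower genes, 0 to 1 higher and 5 to 7 lower member probe sets, and a Car3 to muscle r from -0.51 to 0.40. The ranges that crossed 0 were -0.087 to 0.039 for Car4 on the gene mean (probe sets -0.11 to 0.088 and -0.063 to 0.019), -0.016 to 0.066 for 1 probe set of Car8, -0.027 to 0.0068 for Car13 (1 probe set from -0.045 to 0.028) and -0.093 to 0.030 for Car14. The pooled correlation of Car3 with muscle was not run because the genotypes separate.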
